A study of Mus musculus with 12 samples.

Results

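Ter119+ erythroblasts (ERY) were compared with hematopoietic stem and progenitor cells (HSPC) of the mouse fetal liver, on 8 of the 12 arrays of the series and across all 19937 genes that have a probe set of their own. Both populations came from E14.5 embryos and neither was cultured. ERY were taken from fetal liver cells with magnetic beads through an antibody to Ter119, a surface antigen of maturing red cells, and HSPC, whose arrays carry the label HSC, were lineage-depleted cells sorted for Sca1. Each population was measured on 4 arrays from 4 biological replicates, and the 4 arrays of cultured megakaryocytes entered only the estimate of the spread and the choice of 1 probe set per gene. Genes of globins, heme, iron and the red cell membrane, which characterize erythroblasts, are left aside here except as a check of the labels and for 3 that also belong to another list (*Hmox1*, *Slc40a1* and *Cd44*), and the account turns to regulators, signalling, cell division, protein turnover and metabolism.

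During terminal erythropoiesis, a progenitor that still divides and responds to erythropoietin becomes a small cell that fills with hemoglobin, condenses its chromatin and finally expels its nucleus. GATA1, TAL1 and KLF1 are the best known transcription factors of this program, whereas GATA2, MYB and the ETS factor SPI1 belong to progenitors or other blood lineages. Fetal liver is the main site of red cell production at this stage, and there erythroblasts mature around macrophages and among hepatocytes.

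Levels are on the log2 scale of the deposited table, where 1 unit stands for 2-fold, and every change is the ERY mean minus the HSPC mean. Genes that differed by more than 2-fold with a limma adjusted p under 0.05 are termed induced when higher in ERY and repressed when lower. Of the 19937 genes, 1664 were induced (8.35%) and 2447 were repressed (12.3%). In place of a detection call, a background limit of 5.92 was taken, the 95th percentile of 1027 olfactory receptor genes. Of the 12672 genes that reached it in ERY or HSPC, 13.0% were induced and 19.2% were repressed. The median change was 0.03 for all genes and -0.10 for these 12672 genes. Because an array measures a mixture of RNA, fewer cells of a type and less RNA per cell cannot be told apart.

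The HSPC arrays fell into 2 pairs. Arrays 1 and 2 correlated at 0.981 and arrays 3 and 4 at 0.994, but arrays 1 and 3 at 0.934, and the lowest correlation was 0.908 among HSPC arrays and 0.9886 among ERY arrays. The median SD of genes above the limit was 0.36 in HSPC and 0.15 in ERY. Without HSPC arrays 1 and 2, 12.3% of genes were induced and 14.1% repressed, and without HSPC arrays 3 and 4, 5.86% and 11.2%. When each array was centred on its ribosomal protein genes instead, the median of all genes moved to 0.39, and 13.3% were induced and 7.77% repressed. The share of induced genes among all called genes was 40.5%, but 63.0% with this centring and 56.1% with centring on the genes above the limit. For many of the calls and counts below that rest on a pair, the value without it is given as well. The gene lists were chosen with earlier results of these data known, so their counts describe the listed genes only.

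The pairs also differed by the length of genes. Genes above the limit were divided into 5 equal groups by the span of the gene, with median spans from 3.36 kb to 109.36 kb. HSPC arrays 1 and 2 were below arrays 3 and 4 by a median of -0.46 in the group of shortest genes and above them by 0.45 in that of the longest. Between ERY and HSPC the medians of the same groups were -0.20 and 0.04. Of the shortest genes 5.61% were induced and of the longest 18.9%, and the part of gene length in the calls was not tested.

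The labels were checked with genes known for each population. The 7 measured genes of erythroblasts, *Epor*, *Gata1*, *Klf1*, *Tfrc*, *Slc4a1*, *Alas2* and *Epb42*, were all induced. *Alas2*, which starts heme synthesis in the erythroid lineage, ranged from 6.27 to 6.69 in HSPC and from 12.79 to 12.91 in ERY. Of the 5 measured genes of HSPC, *Cd34*, *Kit*, *Flt3* and *Meis1* were repressed, and *Procr* differed by -0.67, short of 2-fold. *Ly6a*, which encodes Sca1, has no probe set with a single symbol and was not analysed here.

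Genes known for other cells of the fetal liver differed between the populations as well. Of 17 hepatocyte genes, 15 were higher in ERY and none was lower, with a median change of 1.90. Their summed level, on the linear scale, ran from 9110 to 24389 over the HSPC arrays and from 28589 to 44436 over the ERY arrays, and all 17 were above the limit in both. *Fgg*, a chain of fibrinogen, read 7.19, 8.91, 6.33 and 6.76 on the HSPC arrays and 11.13, 10.19, 9.98 and 9.88 on the ERY arrays. Of 18 macrophage genes, 10 were higher in ERY and none was lower, and their summed level was 4023 to 5308 in HSPC and 6572 to 11658 in ERY. This list includes *Hmox1* and *Slc40a1*, genes of heme and iron handling that erythroblasts also use. Without them 8 of 16 were higher and none was lower, with sums of 3547 to 4579 in HSPC and 4584 to 8650 in ERY. *Cd5l*, a protein secreted by macrophages, rose by 2.35, and the adhesion molecule *Vcam1* by 2.66, from 5.77 to 7.44 in HSPC to 9.25 to 9.44 in ERY. The part of such cells in the results below was not tested.

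In the other direction, markers of white blood cells were higher in HSPC. Of 17 neutrophil and monocyte genes 9 fell, with a summed level of 19653 to 26256 in HSPC and 1623 to 1825 in ERY, and of 16 lymphoid genes 9 fell, with sums of 5144 to 7357 and 725 to 803. Of 12 genes of mast cells and basophils, 4 fell, and 6 were below the limit in HSPC. The 4 include *Kit* and *Gata2*, which are also on the list of stem and progenitor genes. Of 15 megakaryocyte and platelet genes 10 fell and 1 rose, *Tubb1*, with 6 down without HSPC arrays 3 and 4, and of 15 endothelial genes 8 fell and 3 rose, *Cdh5*, *Lyve1* and *Stab2*. *Stab2* read 8.07 on HSPC array 2 and between 6.48 and 6.67 on the other HSPC arrays, and its call was lost without HSPC arrays 3 and 4, as were those of *Tubb1* and *Lyve1*. Of 18 stem and progenitor genes, 15 fell, and *Mllt3*, a chromatin reader known for stem cell maintenance, rose by 3.50.

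Aside from the excluded genes and hepatocyte genes, the largest increase was in *Hsd3b6*, a hydroxysteroid dehydrogenase. It read 4.84, 4.71, 4.60 and 4.91 on the HSPC arrays and 11.68, 11.99, 11.48 and 11.61 on the ERY arrays. The change was 6.92 (SE 0.31, limma adjusted p = 9.75e-09), and its HSPC mean lay under the background limit. The same held for *Trim10*, *Fhdc1*, *Pkhd1l1*, *Tlcd4*, *Tspan8* and *Fn3k* among the genes below, so the sizes and order of these changes depend on the array background. *Trim10*, a RING-domain protein of the tripartite motif family, rose from 5.27 ± 0.25 to 11.58 ± 0.20 (SD, n = 4), a change of 6.31 (SE 0.16). *Tent5c*, a poly(A) polymerase that acts on messenger RNA, rose from 6.13 ± 0.14 to 12.39 ± 0.11, a change of 6.26 (SE 0.17). Only genes whose ERY and HSPC arrays did not overlap were ranked, so that separation was a condition of the choice. The spread among the HSPC arrays was small for *Hsd3b6*, *Trim10* and *Tent5c*.

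The promoters of these 3 genes are shown, from 250 bases before to 50 bases after the start in RefSeq on build GRCm38.p6, because they had the largest increases. Capitals mark AGATAA (the GATA motif), CCNCNCCC (a KLF1 motif) or CAGNTG (an E-box), searched on both strands. *Hsd3b6* lies at chr3:98814394-98814693 (minus strand), *Trim10* at chr17:36869324-36869623 (plus strand) and *Tent5c* at chr3:100489143-100489442 (minus strand).
Hsd3b6: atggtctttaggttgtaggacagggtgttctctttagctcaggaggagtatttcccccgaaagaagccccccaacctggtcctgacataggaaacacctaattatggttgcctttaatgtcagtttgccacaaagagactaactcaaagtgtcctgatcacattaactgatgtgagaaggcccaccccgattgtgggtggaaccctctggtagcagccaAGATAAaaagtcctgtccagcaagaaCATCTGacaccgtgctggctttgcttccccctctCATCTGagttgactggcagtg
Trim10: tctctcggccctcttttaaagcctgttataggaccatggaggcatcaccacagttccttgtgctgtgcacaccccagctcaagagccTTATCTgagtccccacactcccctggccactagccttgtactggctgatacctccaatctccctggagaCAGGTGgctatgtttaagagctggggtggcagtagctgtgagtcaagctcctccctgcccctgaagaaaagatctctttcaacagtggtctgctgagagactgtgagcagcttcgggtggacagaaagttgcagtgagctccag
Tent5c: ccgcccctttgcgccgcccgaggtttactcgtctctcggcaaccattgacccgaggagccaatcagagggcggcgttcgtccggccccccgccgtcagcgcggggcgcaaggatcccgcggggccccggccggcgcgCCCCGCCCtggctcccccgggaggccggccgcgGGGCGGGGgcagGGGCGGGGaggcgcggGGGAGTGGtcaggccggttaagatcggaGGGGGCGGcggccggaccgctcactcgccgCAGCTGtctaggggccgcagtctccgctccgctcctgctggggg
*Hsd3b6* and *Trim10* held 1 GATA motif each, and *Tent5c* held none but 5 matches of the KLF1 motif. Over all promoters, AGATAA was found in 9.55% of 15613, in 6.61% of the 10116 of genes above the background limit, in 6.75% of those of induced genes and in 6.0% of those of repressed genes. CCNCNCCC was found in 59.3% of all promoters, in 69.0% of those above the limit, in 72.5% of the induced and in 71.6% of the repressed. CAGNTG was found in 47.8% of all promoters, in 44.0% of those above the limit, in 40.0% of the induced and in 45.3% of the repressed. In a window of 300 bases a match says only that these letters are present, not that a factor is bound.

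Next in size were *Fhdc1*, a formin of actin and microtubule organization (6.19), *Pkhd1l1*, which encodes a large membrane protein (6.18), and *Chac2*, an enzyme of glutathione breakdown (6.14). *Fhdc1* lay between 4.98 and 5.11 on the HSPC arrays and between 11.08 and 11.48 on the ERY arrays. *Chac2* was less even, at 7.29, 6.44, 5.68 and 4.94 in HSPC against 12.04 to 12.35 in ERY. The list went on with *Tlcd4* (5.59), *Cpeb4*, a regulator of messenger RNA translation (5.56), the tetraspanin *Tspan8* (5.24), and *Fn3k*, a kinase that removes sugar from glycated proteins (5.24). *Tlcd4* read 8.24 on HSPC array 1 and 4.53 to 5.21 on the other 3, so its change ran from 4.50 without HSPC arrays 3 and 4 to 6.68 without arrays 1 and 2.

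Among the largest decreases were granule proteins of the myeloid lineage and surface and signalling molecules of progenitors and lymphocytes. *Cd34*, the sialomucin of progenitors, fell from 12.15 to 12.30 in HSPC to 6.27 to 6.65 in ERY, a change of -5.81 (SE 0.27). *Nkg7*, a protein of cytotoxic granules, changed by -5.54, and the neutrophil proteases *Ctsg*, *Prtn3* and *Elane* by -5.54, -5.25 and -5.20. *Elane* read 7.31 on ERY array 1 and 6.20 to 6.24 on the other 3. The actin-binding *Lsp1* (-5.21), *Plac8* (-5.50), *Cmtm7* (-5.01), the DNA-sensing adaptor *Sting1* (-4.92) and the peroxidase *Mpo* (-4.88) completed the 10 largest. *Nkg7*, *Ctsg*, *Prtn3*, *Elane* and *Mpo* belong to the lists of lymphoid and myeloid markers whose summed levels are given above. In all, 206 genes were induced and 157 repressed over 8-fold.

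Of 300 microRNA genes on the array, 7 were induced (2.33%) and 8 repressed (2.67%), below the shares of all genes, and those described were chosen after their values were seen. Only 91 of the 300 reached the background limit. MicroRNAs pair with messenger RNAs mainly through the seed, bases 2 to 8, and those of the Mir144 and Mir451a pair are known for their abundance in red cells. The mature sequences of the gene with the largest increase and of well known genes among them, from RefSeq on GRCm38.p6, are shown to identify them, with the seed in capitals.
miR-687: cUAUCCUGgaaugcagcaauga
miR-144-3p: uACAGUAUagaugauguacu
miR-451a: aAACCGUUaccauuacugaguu
miR-15a-5p: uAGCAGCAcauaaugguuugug
miR-17-5p: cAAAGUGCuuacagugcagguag
miR-18a-5p: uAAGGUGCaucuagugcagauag
miR-19a-3p: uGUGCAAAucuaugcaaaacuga
miR-19b-3p: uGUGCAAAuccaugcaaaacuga
The mature miR-144-3p lies at chr11:78073047-78073066 and miR-451a at chr11:78073186-78073207, as neighbours on the plus strand, while miR-687 at chr14:73206808-73206829 and miR-15a-5p at chr14:61632075-61632096 are on the minus strand. Those of *Mir17*, *Mir18*, *Mir19a* and *Mir19b-1* lie in 1 cluster, from chr14:115043684-115043706 to chr14:115044358-115044380, and the last 2 share a seed. The probe sets are assigned to the microRNA genes. Whether they read a precursor or a longer transcript that spans the microRNA gene is not given in the sources used here, and was not tested.

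*Mir687* read 5.51, 4.56, 4.05 and 3.69 in HSPC and 8.40, 8.29, 7.81 and 7.47 in ERY, a change of 3.54 (SE 0.45, limma adjusted p = 5.85e-05), and kept its call without either pair. Its HSPC mean of 4.45 lay under the background limit. *Mir144* read 2.84, 2.86, 2.75 and 2.87 in HSPC and 5.54, 5.78, 4.07 and 5.07 in ERY, a change of 2.29 (SE 0.28, adjusted p = 4.64e-05). *Mir451a* rose by 1.53, from a mean of 4.21 in HSPC to 5.74 in ERY. *Mir144* and *Mir451a* stayed below the background limit in their population means, and each group of 4 arrays stood apart from the other. *Mir15a* rose by 2.51, from 5.54 to 7.03 in HSPC to 7.65 to 9.38 in ERY, and lost its call without HSPC arrays 3 and 4. Of the cluster on chromosome 14, *Mir17* changed by -1.66, from 5.63 to 6.48 in HSPC to 4.16 to 4.84 in ERY, and *Mir18* by -2.20. *Mir19a* and *Mir19b-1*, also below the background limit in their population means, changed by -1.57 and -1.20. The arrays of *Mir19a* overlapped, with the lowest HSPC array at 5.07 and the highest ERY array at 5.21. For *Mir19b-1* the same arrays nearly met, at 5.274 and 5.270. *Mir18* and *Mir19a* lost the call without HSPC arrays 3 and 4, and *Mir19b-1* lost it without arrays 1 and 2, and also when arrays were centred on ribosomal protein genes. *Mir142*, of blood cells in general, changed by -1.59 and kept its call without either pair.

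Of 36 erythroid factors and partners, 17 rose and 3 fell, with a median change of 0.97. The largest increases of this list were in the elongation factor *Ell2* (4.85), *Sox6*, a repressor of embryonic globin (4.14), and the cell cycle factor *E2f2* (4.02). *Sox6* was even in HSPC, at 6.20 to 6.40, and stood at 10.17 to 10.72 in ERY. *Klf1* rose from 9.04 ± 0.24 to 11.82 ± 0.06, by 2.78 (SE 0.18), and *Tal1* from 8.50 ± 0.28 to 10.91 ± 0.08, by 2.41 (SE 0.20). *Foxo3*, a factor of the oxidative stress response, rose by 1.83 from 8.88 to 9.20 in HSPC to 10.74 to 11.10 in ERY.

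*Gata1* rose by 1.59 (SE 0.35, limma adjusted p = 0.00357). It read 8.19, 9.51, 10.18 and 10.20 on the HSPC arrays and 11.01, 11.14, 11.08 and 11.22 on the ERY arrays. Without HSPC arrays 1 and 2 its change was 0.92 and short of 2-fold, and without arrays 3 and 4 it was 2.26. The members that fell were *Stat5a* (-2.37), *Trim28*, a corepressor (-2.05), and *Stat5b* (-1.48).

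Of 40 transcription factors of progenitors and the myeloid and lymphoid lineages, 26 fell and none rose, with a median of -1.90. *Etv6*, an ETS repressor, changed by -4.21 (SE 0.20), from 10.46 to 10.64 in HSPC to 5.84 to 6.62 in ERY. *Spi1*, the myeloid ETS factor, changed by -3.57, and *Satb1*, a chromatin organizer of lymphoid cells, by -3.52. *Myb* fell from 11.75, 11.38, 10.53 and 10.33 in HSPC to 8.08, 7.27, 7.75 and 7.45 in ERY, a change of -3.36. *Gata2* changed by -2.86 and *Myc* by -2.47, the latter from 11.02 to 11.73 in HSPC to 8.64 to 9.05 in ERY. Without either pair of HSPC arrays these genes kept their calls. The number that fell was 26 without arrays 1 and 2 and 27 without arrays 3 and 4, while centring on ribosomal protein genes gave 23.

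**Figure D1:**
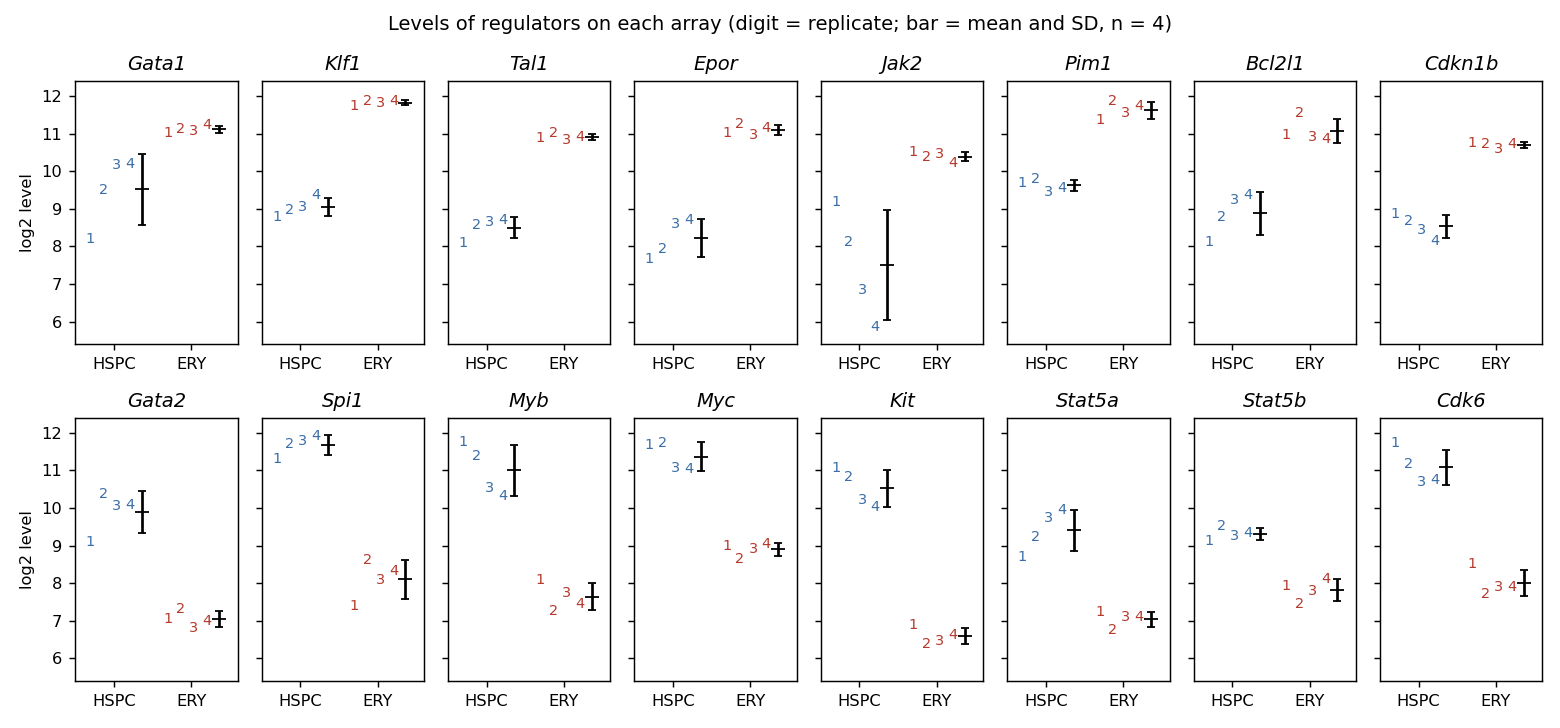
Log2 level (y axis) of 16 regulators on each HSPC and ERY array, with the replicate number as the symbol and the mean and SD of 4 arrays as the bar. *Klf1*, *Tal1* and *Epor* of ERY lie above all HSPC arrays, *Gata1* of HSPC ranges from 8.19 to 10.20, and *Gata2*, *Kit* and *Stat5a* of ERY lie below all HSPC arrays.

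Surface receptors changed mostly downward. Of 35 receptors of cytokines and growth factors, 20 fell and 2 rose, with a median of -1.32. *Epor*, the erythropoietin receptor, rose from 7.67, 7.94, 8.59 and 8.71 in HSPC to 11.02, 11.26, 10.95 and 11.15 in ERY, a change of 2.87 (SE 0.21, adjusted p = 7.11e-07). The other that rose was *Bmpr1a*, a receptor of bone morphogenetic proteins, by 1.33. Its HSPC mean of 4.60 lay under the background limit and its ERY mean of 5.93 near it. *Flt3* changed by -4.21, *Kit*, the receptor of stem cell factor, by -3.94, and *Csf3r*, the receptor of granulocyte colony-stimulating factor, by -3.75. *Kit* stood at 10.02 to 11.06 in HSPC and at 6.39 to 6.89 in ERY.

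Genes of JAK-STAT signalling, through the erythropoietin receptor or other receptors, moved in both directions. Of 27 genes of JAK-STAT signalling and its feedback, 7 rose and 9 fell, with a median of -0.57. The kinase *Jak2* rose by 2.88, but with wide HSPC levels of 9.19, 8.12, 6.85 and 5.87 against 10.22 to 10.52 in ERY, so that the change was 1.73 without HSPC arrays 3 and 4 and 4.03 without arrays 1 and 2. *Bcl2l1*, which encodes the survival factor BCL-XL, rose by 2.19, from 8.13, 8.78, 9.25 and 9.37 to 10.98, 11.54, 10.92 and 10.86. *Pim1*, a kinase induced by STAT5, rose by 2.01 (SE 0.13), from 9.45 to 9.79 in HSPC to 11.35 to 11.87 in ERY. In contrast, *Stat5a* read 8.71, 9.23, 9.74 and 9.94 in HSPC and 7.23, 6.74, 7.09 and 7.09 in ERY, and *Stat5b* read 9.12 to 9.51 and 7.44 to 8.12. *Stat4* changed by -3.22 and the phosphatase *Ptpn6* by -2.59. The genes for the STAT5 proteins were thus lower in ERY while *Epor*, *Jak2*, *Bcl2l1* and *Pim1* were higher.

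Signalling downstream of immune receptors and GTPases was lower in ERY. Of 51 genes, 34 fell and 3 rose, and the median was -1.74. *Plcg2*, a phospholipase of immune receptors, fell from 10.45 to 10.67 in HSPC to 6.19 to 6.51 in ERY, a change of -4.29 (SE 0.12, adjusted p = 3.22e-10). *Arhgdib*, a regulator of GTPases in blood cells, changed by -4.24, and *Elmo1*, which acts with the exchange factors of RAC, by -3.88. Those that rose were the adaptor *Grap2* (2.71), the GTPase *Rap1a* (1.93) and the kinase subunit *Pik3r1* (1.47). *Rap1a* and *Pik3r1* lost the call without HSPC arrays 3 and 4, which left 1 that rose.

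Of 55 actin regulators and adhesion molecules, 33 fell and 5 rose, with a median of -1.32, and 7 rose without HSPC arrays 1 and 2 but 2 without arrays 3 and 4. Beside *Cd34*, the actin-binding *Coro1a* changed by -4.73 and the tetraspanin *Cd37* by -4.05. *Cd82*, another tetraspanin, rose by 2.56, from 9.67 to 10.11 in HSPC to 12.29 to 12.54 in ERY. The integrin-linked adaptor *Parvb* rose by 1.91 and the integrin *Itga4* by 1.78, the latter without a call when HSPC arrays 3 and 4 were left out. For antigen presentation and the interferon response, 14 of 44 genes fell and 2 rose, with a median of -0.69. *Ifitm3* and *Ifitm1*, membrane proteins that restrict viruses, changed by -4.03 and -3.64, and *H2-DMa*, which loads peptides on class II molecules, by -3.58. *Isg20*, an exonuclease, rose by 3.32 and *H2-T24* by 2.86.

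Of 30 regulators of the G1 and S phases, 13 rose and 3 fell, with a median of 0.58. *Rb1*, the retinoblastoma protein, rose by 4.67, from 8.91, 7.80, 5.93 and 5.79 in HSPC to 11.67 to 11.90 in ERY, and *E2f2* by 4.02. *Cdkn2c*, the inhibitor p18, rose from 5.98 ± 0.26 to 10.14 ± 0.07, a change of 4.16 (SE 0.15, adjusted p = 1.96e-09), and *Cdkn1b*, the inhibitor p27, by 2.17. *Cdk6* changed by -3.08, from 10.70 to 11.72 in HSPC to 7.71 to 8.51 in ERY, and *Ccnd2*, cyclin D2, by -2.38.

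*Cdk4* changed by -1.07, and lost its call without HSPC arrays 3 and 4, without ERY array 2 and with centring on ribosomal protein genes. *Ccnd3*, the D cyclin of erythroblasts, rose by 1.06, from 9.51, 10.29, 10.67 and 10.72 to 11.23, 11.23, 11.38 and 11.59. Its change was 0.66 and not called without HSPC arrays 1 and 2, and it was not called without HSPC array 1 or ERY array 4 alone.

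Genes of mitosis and cytokinesis were higher in ERY. Of 41, 27 rose and 1 fell, with a median of 2.03, and the number that rose was 28 without HSPC arrays 1 and 2 and 19 without arrays 3 and 4. The kinesin *Kif18a* rose by 3.38, *Cenpk* of the kinetochore by 3.17, and the kinetochore motor *Cenpe* by 3.14. *Kif18a* read 8.13, 6.86, 5.47 and 5.13 in HSPC and 10.05, 9.79, 9.90 and 9.38 in ERY, so that even the highest HSPC array was lower. *Cep55*, of the abscission step, was the 1 that fell, by -1.57 as a change, from 8.33, 7.41, 6.21 and 5.63 to 5.25 to 5.43, and it was not called without HSPC arrays 1 and 2 or without HSPC array 2.

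Of 43 genes of DNA replication 10 rose and 2 fell, with a median of 0.43, and leaving out HSPC arrays 1 and 2 gave 14 that rose and leaving out arrays 3 and 4 gave 2. It was 3 without HSPC array 3 or without ERY array 1, 4 without HSPC array 4, 5 without ERY array 3 and 6 without ERY array 4. *Orc2* and *Orc1* of the origin recognition complex rose by 2.13 and 1.87, and *Pola1* of the primase complex by 1.95. *Orc1* kept its call without either pair of arrays, while *Orc2* and *Pola1* lost it without arrays 3 and 4. *Pold2* and *Pold1*, subunits of polymerase delta, changed by -1.51 and -1.22, and *Pold1* lost its call without arrays 3 and 4 or when arrays were centred on ribosomal protein genes. In DNA repair, 15 of 35 genes rose and 1 fell, with a median of 0.94, and 23 rose without arrays 1 and 2 but 7 without arrays 3 and 4. The helicase *Wrn* rose by 2.70, *Atad5*, which unloads the replication clamp, by 2.52, and *Brca1* by 2.51, and each kept its call without either pair. *Fance*, of the Fanconi core complex, changed by -1.20, with no call without arrays 3 and 4 or with centring on ribosomal protein genes.

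**Figure D2:**
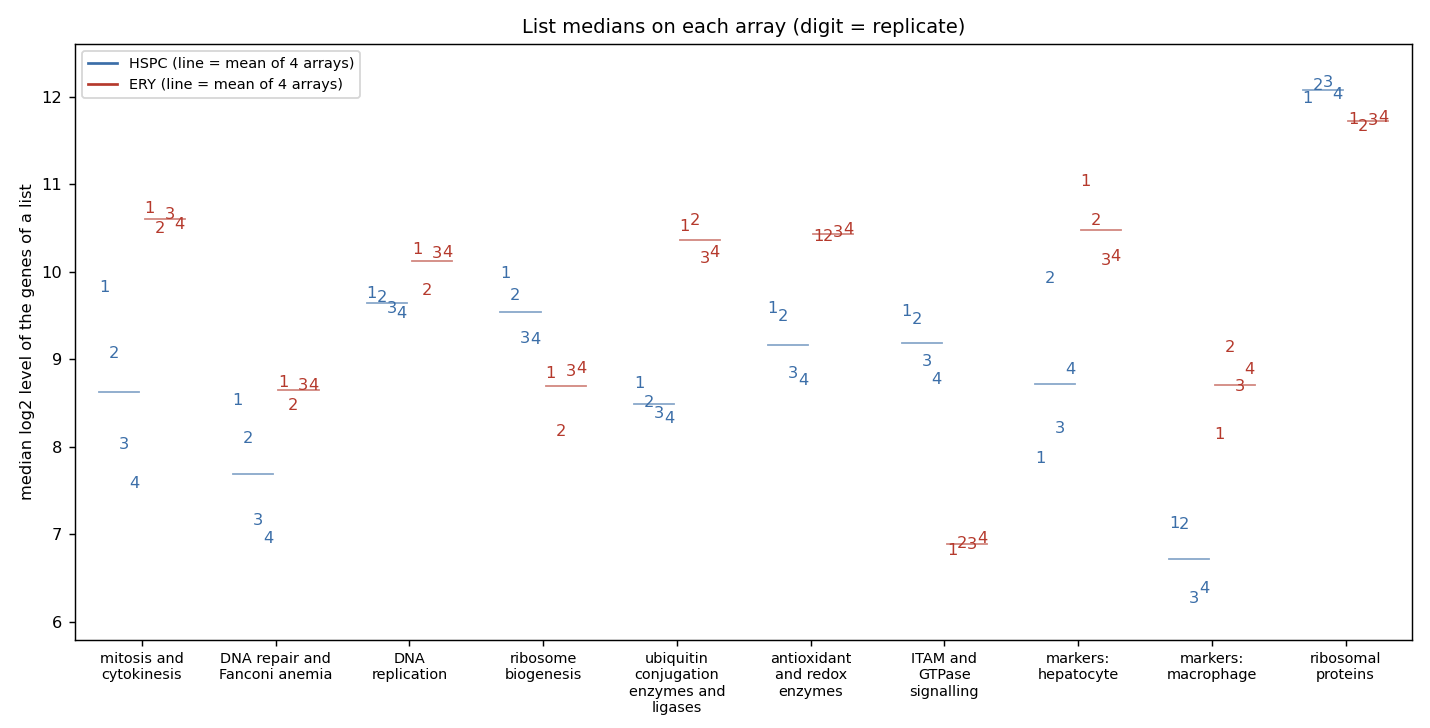
Median log2 level (y axis) of the genes of 10 lists on each HSPC and ERY array, with the replicate number as the symbol and a line at the mean of 4 arrays. The mitosis genes range from 7.59 to 9.82 over the HSPC arrays and from 10.49 to 10.72 over the ERY arrays, and the medians of ribosome biogenesis are at 9.22 to 9.98 in HSPC and 8.18 to 8.89 in ERY.

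Genes known for chromatin condensation and the loss of the nucleus rose in part, 18 of 40, and 4 fell, with a median of 0.81. Without HSPC arrays 1 and 2, 26 rose, and without arrays 3 and 4, 13. Next to *Fhdc1*, *Wdr26*, a subunit of a ubiquitin ligase complex, rose by 3.18, and the nuclear export receptor *Xpo7* by 3.07. *Xpo7* stood at 9.09 to 10.31 in HSPC and at 12.61 to 12.98 in ERY. The acetyltransferase *Kat2a* fell from 10.42 to 11.41 in HSPC to 7.96 to 8.26 in ERY, a change of -2.91, the GTPase *Rac2* changed by -2.51 and the lamin *Lmnb2* by -1.69.

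Chromatin regulators and enzymes of DNA methylation were split, with 11 of 49 up, 13 down and a median of -0.09 that turned to 0.22 when HSPC arrays 1 and 2 were left out and to 0.26 when arrays were centred on ribosomal protein genes. The number up was 16 without arrays 1 and 2, 3 without arrays 3 and 4, 6 without HSPC array 3, HSPC array 4, ERY array 1 or ERY array 2, and 7 without ERY array 3. The de novo methyltransferase *Dnmt3b* changed by -3.44 (SE 0.26), from 9.18 to 9.64 in HSPC to 5.70 to 6.03 in ERY. *Hmga2*, a chromatin protein of fetal stem cells, changed by -2.86 and the deacetylase *Hdac7* by -2.55. The demethylase *Kdm6a* rose by 2.72 and the deacetylase *Sirt1* by 1.88, and *Suz12*, of Polycomb complex 2, rose by 2.05 but not without HSPC arrays 3 and 4.

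Most of the listed genes of ubiquitin conjugation were higher in ERY. The list was chosen with earlier results of these data known, so its counts do not describe the whole class. Of 60 conjugating enzymes, ligases and deubiquitinases, 38 rose and 4 fell, with a median of 1.59, and 41 rose without HSPC arrays 1 and 2 and 33 without arrays 3 and 4. Beside *Trim10*, the deubiquitinase *Usp32* rose by 4.91, from 8.46, 7.38, 6.39 and 5.98 in HSPC to 11.80 to 12.11 in ERY. The membrane ligase *Marchf3* rose by 4.27, from 5.89 to 6.19 in HSPC to 9.95 to 10.84 in ERY. The members that fell were the conjugating enzymes *Ube2d1* (-2.75) and *Ube2e2* (-1.47), the deubiquitinase *Otub1* (-1.66) and the ligase *Nedd4l* (-1.43), the last named to complete the count after its value was seen.

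The proteasome itself had no common direction, with 4 of 40 genes up, 5 down and a median of 0.01 that was -0.08 without HSPC arrays 3 and 4. Both shares were below those of all genes above the limit, 13.0% induced and 19.2% repressed. Those down included the catalytic subunits of the immunoproteasome, *Psmb10* (-3.09) and *Psmb8* (-2.97), and *Psme1* of the PA28 activator (-2.32). *Psmb8* read 8.88, 9.07, 9.28 and 9.37 in HSPC and 5.82, 6.55, 6.07 and 6.27 in ERY, so the groups were far apart. *Psme4*, the PA200 activator, rose by 3.17, from 9.73, 8.54, 7.16 and 6.64 to 11.02 to 11.29. *Psmc6* (1.80) and *Psmd1* (1.49) of the regulatory particle were not called without HSPC arrays 3 and 4, and the number up was 7 without HSPC arrays 1 and 2 and 1 without arrays 3 and 4. Leaving out HSPC array 1 alone gave 7, HSPC array 3 gave 1, and HSPC array 4 or ERY array 4 gave 2.

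In autophagy and the lysosome 14 of 53 genes rose and 6 fell, with a median of 0.16. *Atg4a*, a protease of autophagosome formation, rose by 3.93, from 9.77, 8.76, 7.54 and 6.34 in HSPC to 11.83 to 12.13 in ERY. This gene of the X chromosome has 2 probe sets. The number of the one kept, 10500802, lies between those of *Fhdc1* and *Dnajb4* on chromosome 3, and which sequence it reads was not tested. *Wipi1*, of early autophagosomes, was even in HSPC at 5.97 to 6.37 and reached 9.17 to 9.33 in ERY, and *Atp6v0a1*, of the proton pump of lysosomes, rose by 2.87 (SE 0.16). *Bnip3l*, the mitochondrial receptor of autophagy, rose by 2.04. The lysosomal hydrolases *Hexa* and *Gaa* changed by -2.05 and -1.82, and *Atg10* by -1.55.

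Of 49 genes of ribosome biogenesis, 21 fell and none rose, with a median of -0.84, and 15 fell with centring on ribosomal protein genes. Without HSPC arrays 1 and 2, 19 fell and 5 rose, and without arrays 3 and 4, 20 fell and none rose. *Rrp9*, of the box C/D snoRNP, changed by -2.32, from 9.19, 9.72, 10.61 and 10.71 in HSPC to 7.75, 7.18, 7.91 and 8.09 in ERY. *Bop1* of ribosome assembly changed by -2.11 and *Polr1b*, a subunit of RNA polymerase I, by -2.05, from a mean of 10.80 in HSPC to 8.75 in ERY. Among 47 ribosomal protein genes 2 fell, *Rpl12* (-2.10) and *Rpl14* (-1.17), none rose, and the median was -0.37. Of all genes above the limit, 19.2% fell and 13.0% rose, so both shares were lower here. *Rpl14* was not called with centring on these genes themselves.

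In translation control and the integrated stress response, 8 of 38 genes rose and 1 fell, with a median of 0.35 that was slightly below 0, at -0.0032, without HSPC arrays 3 and 4, and 13 rose without arrays 1 and 2. *Eif2ak1*, the heme-regulated kinase that slows translation when heme is scarce, rose from 8.97, 8.87, 8.15 and 7.83 in HSPC to 11.50 to 11.81 in ERY, by 3.19 (SE 0.28, adjusted p = 2.52e-06). *Ppp1r15a*, the phosphatase subunit that reverses its effect, rose by 2.78, from 7.49 to 8.53 to 10.60 to 11.12. The repressor of cap-dependent translation *Eif4ebp1* changed by -1.70.

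Heat shock proteins and chaperones showed 4 of 49 genes up and 5 down, with a median of 0.03 that was -0.43 without HSPC arrays 3 and 4, and 14 were up without arrays 1 and 2 and 8 without HSPC array 1. With all arrays, both shares were below those of all genes above the limit, 13.0% induced and 19.2% repressed. The co-chaperones *Dnaja4*, *Dnajb4* and *Dnajb2* rose by 3.89, 3.35 and 2.62. *Dnaja4* was even in both groups, at 6.43 to 6.89 in HSPC and 10.47 to 10.67 in ERY. The immunophilin *Fkbp4* changed by -1.62 and *Pdia4*, an enzyme of disulfide exchange, by -1.46. *Dnajc6* (-1.22) lost its call with centring on ribosomal protein genes. For splicing factors and hnRNPs, 4 of 49 were up and 4 down, with a median of 0.02 that was -0.22 without HSPC arrays 3 and 4. These shares, too, were below 13.0% and 19.2%. The number up was 17 without arrays 1 and 2, 2 without arrays 3 and 4, 14 without HSPC array 1, 1 without ERY array 2, and 2 without any other single array apart from HSPC array 2. *Celf2* changed by -2.86, from 9.04 to 10.65 in HSPC to 6.43 to 7.07 in ERY, while its relative *Celf1* rose from a mean of 9.24 in HSPC to 10.74 in ERY.

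**Figure D3:**
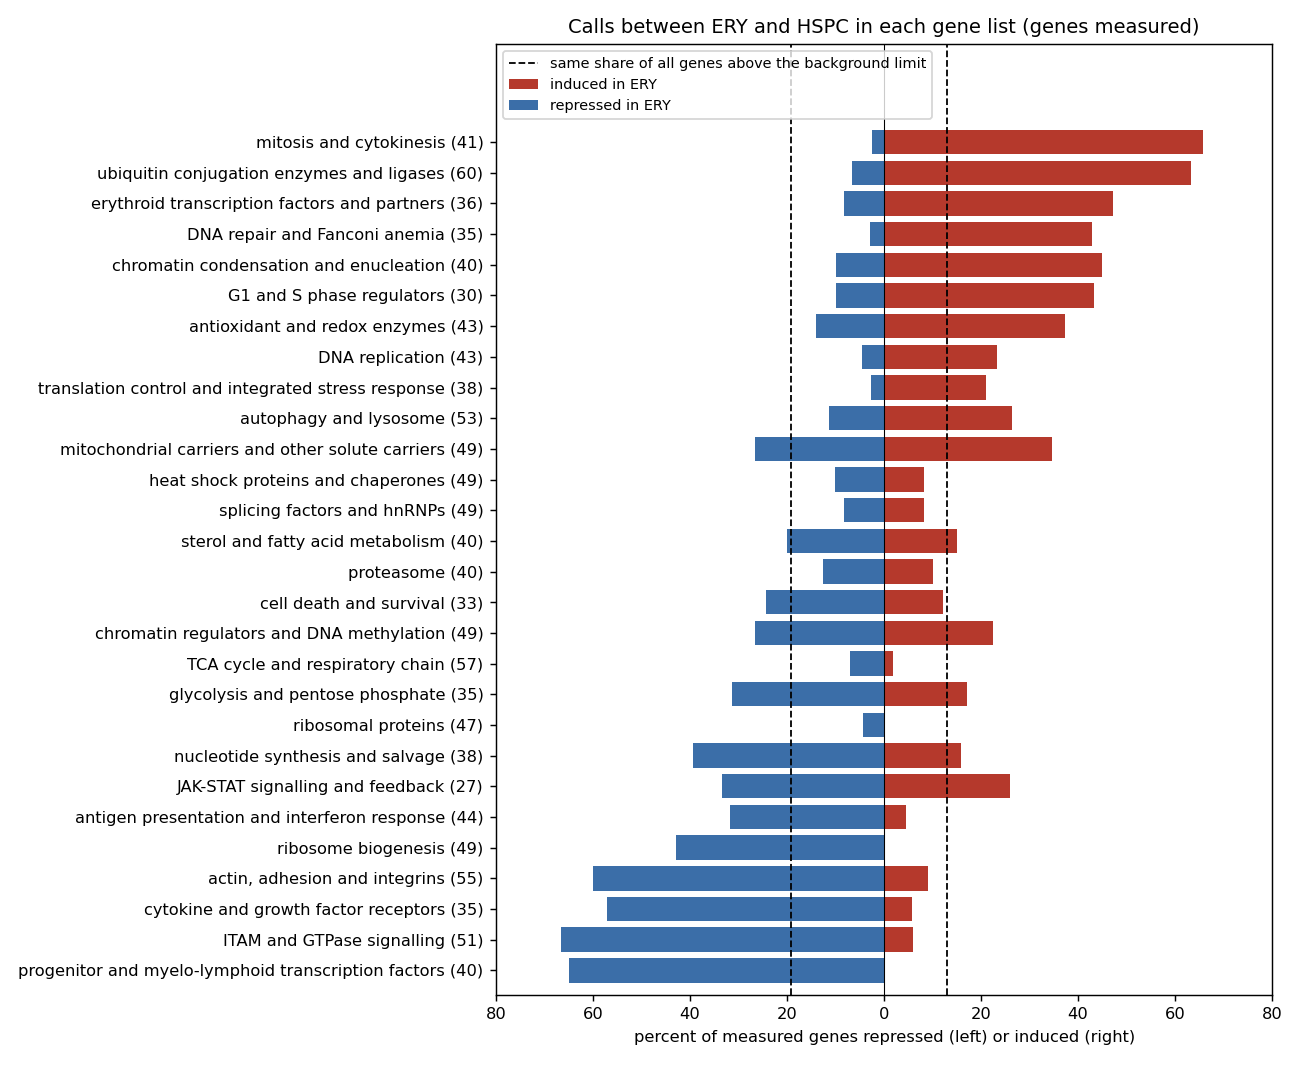
Percent of the measured genes of 28 lists (number in parentheses) that were repressed (left bars) or induced (right bars) in ERY, ordered by the median change. Dashed lines mark the shares of all genes above the background limit, 19.2% and 13.0%, which the bars of mitosis and of ubiquitin conjugation exceed on the right and those of progenitor factors on the left.

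Of 35 genes of glycolysis and the pentose phosphate pathway, 6 rose and 11 fell, with a median of -0.36, and -0.01 with centring on ribosomal protein genes. *Pklr*, the pyruvate kinase of red cells and liver, rose from 9.58, 8.30, 7.73 and 7.84 in HSPC to 12.01, 12.01, 12.24 and 12.36 in ERY, by 3.79 (SE 0.32). *Pkm*, the pyruvate kinase of most other cells, changed by -2.58 (SE 0.29), from 11.10 to 11.56 in HSPC to 8.41 to 9.10 in ERY. *Bpgm*, which makes the 2,3-bisphosphoglycerate that regulates oxygen release, rose by 3.88 (SE 0.18), and the glucose transporter *Slc2a1* by 2.42. *Pfkp*, the platelet form of phosphofructokinase, changed by -2.35 and *Pgls* of the pentose phosphate pathway by -2.07. *Pklr* is also active in hepatocytes, whose markers were higher in ERY, and their part in its change was not tested.

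In the TCA cycle and respiratory chain, 1 of 57 genes rose and 4 fell, below the shares of all genes above the limit, 13.0% and 19.2%. The median of -0.33 was 0.02 with centring on ribosomal protein genes. *Idh2*, the mitochondrial isocitrate dehydrogenase, changed by -2.34 (SE 0.16), from 11.55 to 12.10 in HSPC to 9.35 to 9.68 in ERY. *Ndufb5* of complex I changed by -1.52 and *Suclg1* by -1.19, the latter without a call under that centring. *Dld*, at 1.55, was not called without HSPC arrays 3 and 4 nor without any single array other than HSPC array 1. Leaving out HSPC array 1 gave 7 that fell, and leaving out HSPC arrays 1 and 2 gave 9.

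Of 38 genes of nucleotide synthesis and salvage 15 fell and 6 rose, with a median of -0.43. *Adssl1* and *Impdh1* of purine synthesis changed by -3.21 and -2.26, and *Ctps2*, which makes CTP, by -2.37. *Nt5c3*, the pyrimidine nucleotidase that clears nucleotides when red cells degrade RNA, rose from 7.72, 7.66, 6.60 and 6.05 in HSPC to 10.28 to 10.80 in ERY, by 3.54. The AMP deaminase *Ampd3* rose by 2.65 (SE 0.17) and deoxycytidine kinase, *Dck*, by 2.30. These genes kept their calls without either pair of HSPC arrays.

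Sterol and fatty acid metabolism had 6 of 40 genes up, 8 down and a median of 0.02 that was -0.05 and -0.08 without the first and the second pair of HSPC arrays. Both counts were near the shares of all genes above the limit, 13.0% induced and 19.2% repressed. Without arrays 1 and 2, 10 were up, and without arrays 3 and 4, 3. The desaturase *Scd1* rose by 3.58, from 5.49 to 8.26 in HSPC to 9.84 to 10.83 in ERY, and the synthase *Fasn* changed by -2.32. *Scap*, the sensor of sterols, changed by -2.17 and the elongase *Elovl5* by -1.76. *Sgms1*, of sphingomyelin synthesis, rose by 1.65.

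Solute carriers changed in both directions, 17 of 49 up and 13 down, with a median of 0.11 that was -0.12 without HSPC arrays 3 and 4. *Slc25a21*, a mitochondrial carrier of 2-oxodicarboxylates, rose by 4.74 and the glycine transporter *Slc6a9* by 4.72. *Slc6a9* stood at 7.80 to 8.38 in HSPC and at 12.70 to 12.82 in ERY. The transporter of ergothioneine, *Slc22a4*, rose by 4.21, from 6.84 to 7.54 to 11.21 to 11.48. *Slc7a6*, an amino acid exchanger, changed by -2.63, *Slc25a45* by -2.45 and the ADP/ATP carrier *Slc25a4* by -1.89.

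Of 43 genes of redox balance and related red cell proteins, 16 rose in ERY and 6 fell, with a median of 0.51. *Car2*, a carbonic anhydrase and not itself a redox enzyme, rose by 3.71, *Nqo1*, a quinone reductase, by 3.32 and the heme-binding *Hebp1* by 3.26. *Nqo1* stood at 5.31 to 5.76 in HSPC, under the background limit, and at 8.54 to 9.12 in ERY. The glutathione transferase *Gstm1* changed by -2.07, the methionine sulfoxide reductase *Msra* by -1.76 and *Txnrd3* by -1.54. 

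**Figure D4:**
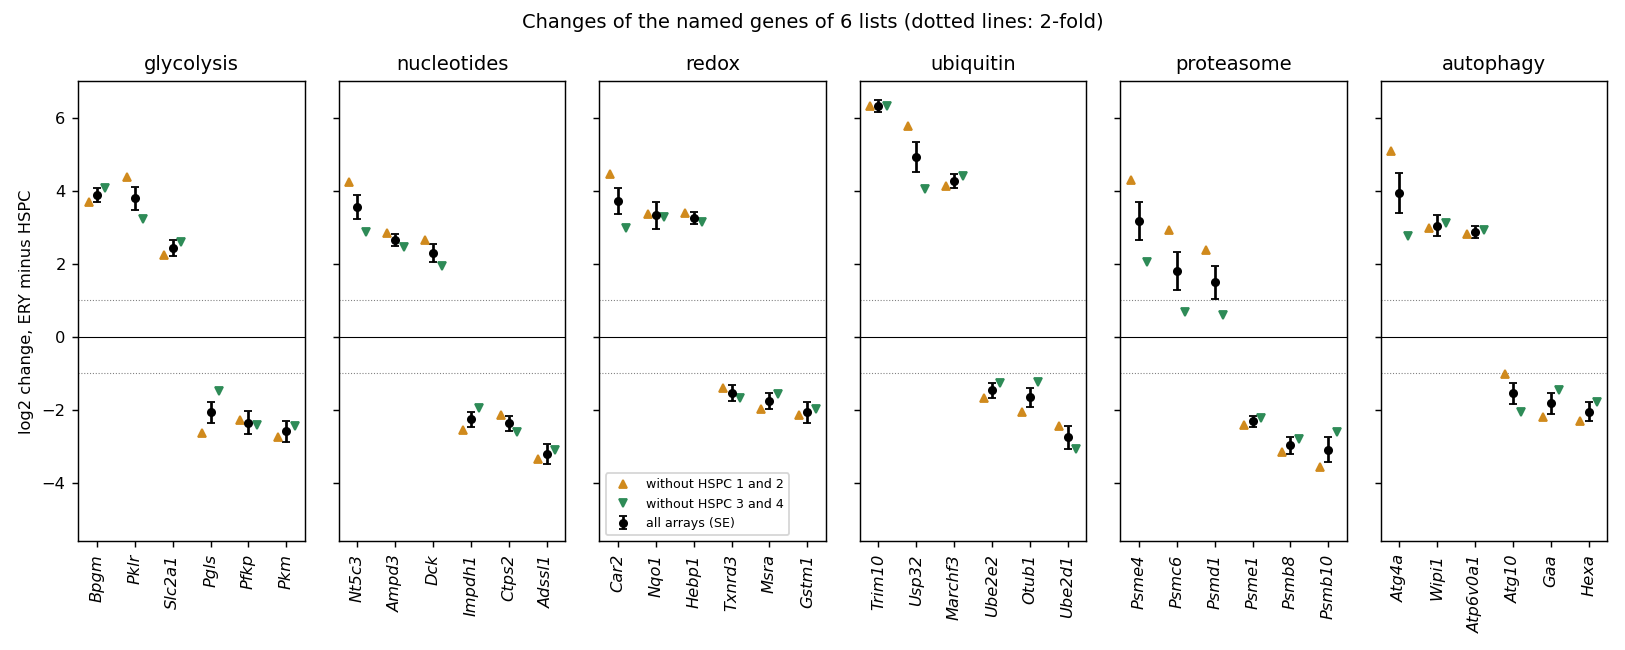
Change in log2 level (y axis, ERY minus HSPC) of the named genes of 6 lists, with the SE of the model (black), and the change without HSPC arrays 1 and 2 (up triangles) or 3 and 4 (down triangles). *Pklr* rose and *Pkm* fell under all 3, whereas *Psmc6* and *Psmd1* lie under 2-fold without arrays 3 and 4, at 0.67 and 0.61.

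Genes of cell death and survival had no common direction. Of 33, 4 rose and 8 fell, with a median of -0.01 that was 0.34 with centring on ribosomal protein genes. These counts were near the shares of all genes above the limit, 13.0% induced and 19.2% repressed. Beside *Bcl2l1*, the death-associated kinase *Dapk2* rose by 3.69, from 5.79 to 6.25 in HSPC to 9.33 to 10.21 in ERY. *Bnip3l*, which can also promote cell death, rose by 2.04. Among the 8 that fell were 3 genes known to promote death, *Bid* from 9.55 to 9.65 to 7.11 to 7.46 (a change of -2.25, SE 0.17), *Bak1* (-1.98) and *Casp8* (-1.71). Leaving out HSPC array 1, alone or with array 2, raised the number that rose to 8.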

How the data were processed

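RNA of 4 HSPC, 4 ERY and 4 megakaryocyte samples was hybridised to GeneChip Mouse Gene 1.0 ST arrays. The deposited table holds log2 values that the authors normalized by RMA, as the submitters' processing notes name it; its version is not given in the sources used here. Array medians ran from 5.99 to 6.25, and 4 arrays per population limit the precision. Of 34760 probe sets, 21640 had 1 symbol in the platform annotation, 1321 had several and 11799 were not listed in it or had no symbol. Per gene the probe set with the highest mean over 12 arrays was kept, which left 19937 genes, of which 954 had more than 1 probe set and 19918 matched a RefSeq gene of GRCm38.p6.

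All 12 arrays were fitted with 1 mean per population (lmFit and eBayes, limma 3.58.1, R 4.3.3), without a filter on low levels, and p-values were adjusted over all genes by Benjamini-Hochberg. The p-values reflect the spread between these arrays. Python 3.11.15 served for the tables and plots, with pandas 2.3.3, numpy 2.4.6 and matplotlib 3.10.9, and the fit was checked on simulated data.

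The gene lists and the comparison were chosen with earlier results of these data known. Named genes were the 10 largest increases and decreases without overlap of the arrays, outside globins, heme, iron, red cell membrane and hepatocyte genes, the 3 largest called increases and decreases of each list, and 12 regulators whatever their values. Of the excluded list of 57 genes, 45 rose and 1 fell. Alternatives were other centring, quantile normalization, a filter and a floor on low levels, the mean over probe sets, other variance models, thresholds, left-out arrays and the replicate number as a block.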

Additional observations from a re-analysis of the deposited data

Results flagged for a closer look

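In 21 of 466 groups of 4 arrays, 1 array lay apart from the other 3 by a gap that took up most of the range of the group (Dixon's 95% limit), where chance gives about 1 in 20. ERY array 2 accounted for 8 of them and ERY array 1 for 5. The share of the range is given for each as the gap.

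On ERY array 2, the lists of DNA replication (gap 0.911), DNA repair (0.852) and ribosome biogenesis (0.925) were low, the last at a median of 8.18 against 8.87 on the other 3, and the endothelial markers were high (0.864). *Orc2* (0.938) and *Cdk4* (0.859) were also low there, *Cdk4* at 11.49 against 11.97, and *Ifitm3* (0.837) and *Slc22a4* (0.836) were high. On ERY array 1, *Elane* (0.960) was high at 7.31 against 6.21, as were *Brca1* (0.886) and *Isg20* (0.902), while *Dnmt3b* (0.937) and *Cd79b* (0.831) were low. *Cdkn1b* was low on ERY array 3 (0.843), and *Cmtm7* (0.880) and the JAK-STAT list (0.833) were high on ERY array 4.

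Among the HSPC arrays, *Gp5*, a platelet glycoprotein, was low on array 1, at 7.05 against 8.72 (0.976), and *Epb42* was high there (0.852). On array 2, *Stab2*, a receptor of liver sinusoids, was high at 8.07 against 6.59 (0.879), together with the endothelial markers (0.878) and *Txnrd3* (0.903).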

How the results depend on the processing

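When arrays were centred on ribosomal protein genes, the induced genes numbered 2643 and the repressed 1550, and with a test against 2-fold 595 and 837. Leaving out 1 array at a time gave 1427 to 2077 induced and 2321 to 2727 repressed genes. With the replicate number as a block, 1678 were induced and 2435 repressed. The numbers are not known to pair the samples: deviations of the same-numbered ERY and HSPC arrays correlated at 0.33, -0.31, -0.14 and 0.16. Of 197 named genes 196 passed the test, and 52 of them lost the call under at least 1 of 23 alternatives, 25 of them under one other than centring and the test against 2-fold. No called value changed sign. The fit with array weights gave a warning about convergence. With centring on ribosomal protein genes, induced genes numbered 19 in DNA replication, 16 in splicing, 9 in chaperones, 9 in cell death, 8 in the proteasome 10 in sterol and fatty acid metabolism, 4 in the TCA cycle and 4 among receptors. Repressed genes numbered 4 in cell death, 5 in sterol and fatty acid metabolism, 3 in redox, 2 in chaperones, 2 in the TCA cycle, 1 in DNA replication, 1 among ribosomal proteins, and 5 each among megakaryocyte and endothelial markers. Each of these moved by over 1.5 times. This centring adds the same amount to the change of every gene, with the median of all genes going from 0.03 to 0.39, while the 2-fold threshold stays. Why the median of ribosomal protein genes was lower in ERY was not tested. Changes of genes near the background limit depend on the array background.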

Other observations

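Outside the genes named by 1 symbol, 13120 probe sets had several symbols or none in the platform annotation. In a separate limma fit of the same form, with p-values adjusted over these probe sets alone, 772 were induced and 499 repressed in ERY. Among the 19937 genes fewer were induced (8.35%) than repressed (12.3%), and the difference in balance was not tested. Of the induced genes with 1 symbol, 199 were below the background limit in HSPC, and of the repressed genes 363 were below it in ERY.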
